A study of Mus musculus with 36 samples.

Results

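The genes described here are the numbered zinc finger genes of the mouse whose symbols run from Zfp9 followed by any 2 further digits (Zfp930 to Zfp998), called Zfp9xx genes below. The rule that picks them uses the symbol and no measured value, though the family was proposed with earlier results of these data known, and 67 of the 56748 genes in the count table carried such a symbol. Another 313 genes with a plain numbered Zfp symbol served for comparison. RNA was sequenced from CD4+ T cells of 2 mouse lines, called HP1a and HP1g. In the HP1a line the Cbx5 gene, which encodes heterochromatin protein 1 alpha, had been inactivated in every tissue by a ubiquitous CMV-cre (HP1a KO), and WT littermates served as controls. In the HP1g line a floxed Cbx3 gene, which encodes heterochromatin protein 1 gamma, was deleted in T cells by a Cd4-cre transgene (HP1g KO), and the WT group carried the floxed alleles without cre. The WT and KO mice that gave the sequenced T cells were sex-matched littermates of 6 to 12 weeks on a mixed background of the 129/Sv and C57BL/6 strains. Each genotype gave naive CD4+ T cells isolated by negative selection from the spleens of the mice themselves. It also gave conventional T cells (Tconv), recovered from the spleens of irradiated, bone marrow-grafted hosts 3 weeks after transfer as naive cells. These had been transferred either alone or together with expanded WT regulatory T cells (Treg). The hosts were C57BL/6 mice, the grafted marrow and the Treg came from other mice, and Tconv were sorted for the T cell receptor chain Vβ6. The design gave 12 groups of 3 libraries, apart from HP1g KO Tconv with Treg, of which 2 libraries were used. The libraries were amplified from 10 pg of RNA and held between 37029477 and 63042165 counts (median 46844629).

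Most mouse Zfp9xx genes encode KRAB zinc finger proteins. These bind DNA through arrays of zinc fingers and recruit the scaffold protein TRIM28 through their KRAB domain. TRIM28 in turn brings in SETDB1, which methylates lysine 9 of histone H3, and the HP1 proteins that bind this mark, and the complex silences retroelements. The family has grown by local duplication, its genes lie in tandem clusters, and in other cell types the clusters themselves carry methylated lysine 9 and HP1. The comparisons below ask how the level of these genes differed in T cells that lacked HP1a or HP1g, and how it differed between naive cells and cells that had met alloantigen in a host.

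In position, 48 of the 67 genes fell into 7 clusters (starts no more than 1 Mb apart on GRCm39), and 19 stood alone. The largest cluster held 16 genes on chromosome 4 between positions 145237287 and 147932882. A cluster on chromosome 2 (175214229 to 177720294) and another on chromosome 17 (21787117 to 23086292) held 10 genes each. A cluster on chromosome 7 (42226953 to 42844955) held 4 genes, those on chromosome 8 (69661686 to 70202640) and on chromosome 13 (66261294 to 67508757) held 3 each, and Zfp934 and Zfp935 formed a pair on chromosome 13 (62600388 to 62719013). The annotation gave 65 as protein coding, and Zfp939 and Zfp996 as pseudogenes.

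Naive and transferred CD4+ T cells expressed a large part of the family at modest levels. With a count of 3 or more taken as detection, 43 genes were detected in every library, 18 in some and 6 in none, and 34 had a group mean of at least 1 CPM (count per 1000000 counts of the library) in all 12 groups. Over all libraries the mean level was 10 CPM or more for 21 genes, 1 to 10 CPM for 19 and under 1 CPM for 27. The highest mean levels were 37.9 CPM for Zfp942, 37.7 CPM for Zfp954, 35.5 CPM for Zfp945, 26.4 CPM for Zfp959 and 26.1 CPM for Zfp984. Per kilobase of exon the order changed, with 9.23 CPM per kb for Zfp959, 8.41 for Zfp984, 7.92 for Zfp956, 7.57 for Zfp954 and 6.20 for Zfp942. Of these, Zfp942 was the steadiest, at 26.0 to 46.6 CPM over the 35 libraries (highest group mean 1.42 times the lowest), while Zfp945 ranged from 18.6 to 58.7 CPM and Zfp959 from 14.3 to 44.9 CPM. A filter on low counts left 47 genes in all 18 comparisons, 53 in at least 1 and 14 in none.

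**Figure D1:**
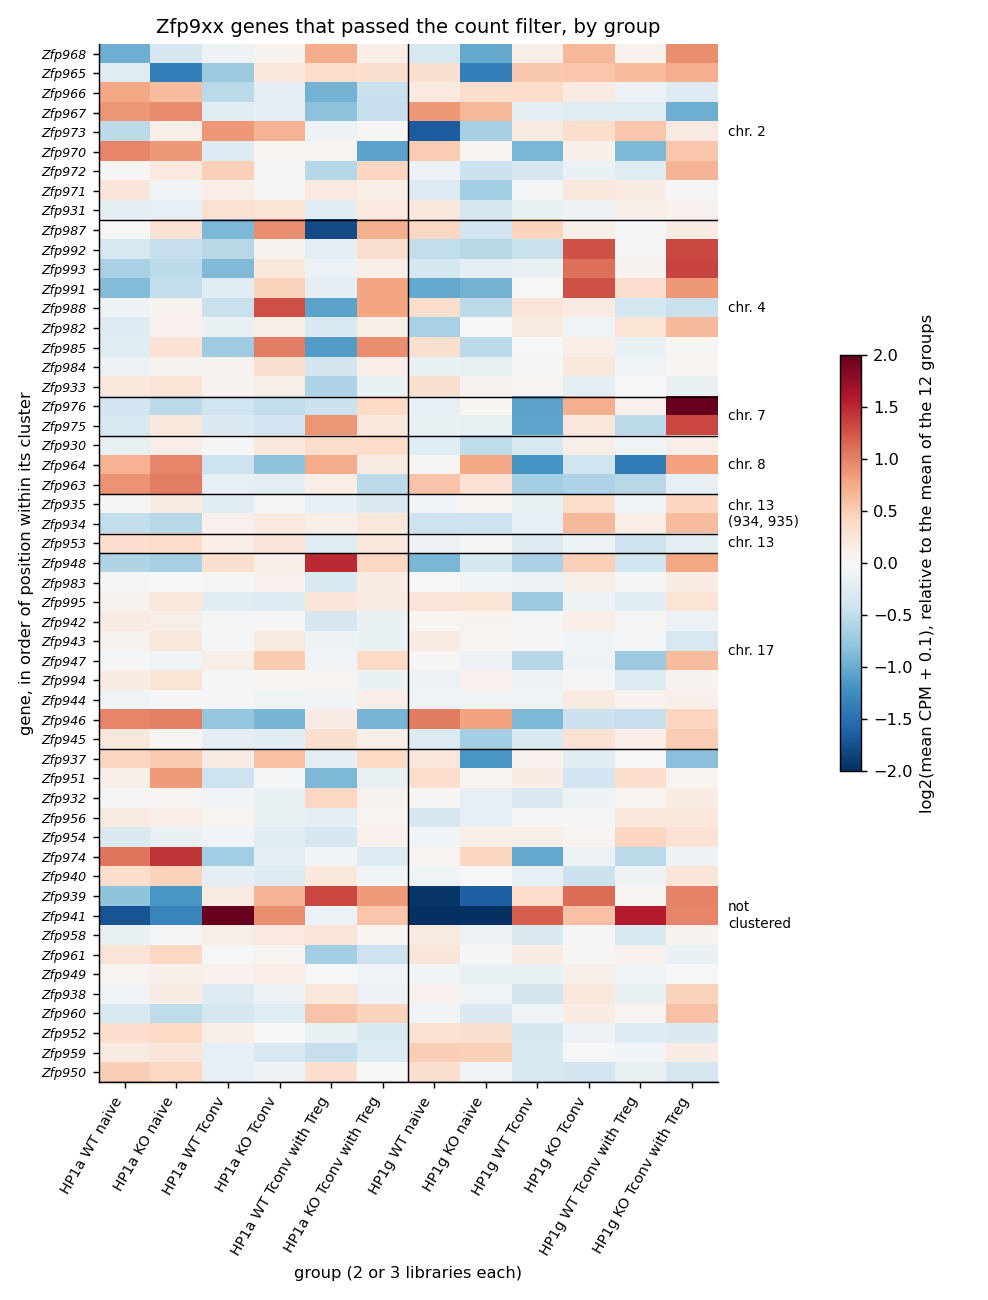
Level of the 53 Zfp9xx genes that passed the count filter in at least 1 comparison (rows, by cluster and position) in the 12 groups (columns, HP1a line left, HP1g line right), as log2 of the mean CPM plus 0.1 relative to the mean of the 12 groups. Most rows are pale, while Zfp985, Zfp987 and Zfp988 are redder in HP1a KO than HP1a WT Tconv, and Zfp991, Zfp992 and Zfp993 are reddest in the HP1g KO Tconv groups.

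The transcripts of Zfp9xx genes are hard to tell apart by sequence, and this limits how far a read count can be assigned to a single gene. Of the 31-base words in the transcripts of a Zfp9xx gene, a median of 36.7% also occurred in another gene, against 1.77% for the other numbered Zfp genes, and 25 of 67 shared at least 50% against 18 of 313. The share was highest in the chromosome 2 cluster (median 95%), intermediate on chromosome 4 (64.0%) and low on chromosome 17 (12%). Salmon divides a read that matches several genes between them, which leaves estimated counts that are not whole numbers. Among genes with at least 1 library of 10 counts, the median share of values above 0 that were not whole was 98.6% for 56 Zfp9xx genes, 34.3% for all 21542 genes and 37.1% for the other Zfp genes. Zfp942, Zfp959 and Zfp984 were among those without any whole value, though Zfp942 shared only 10.4% of its words. Zfp965 of the chromosome 2 cluster, chosen after its values were seen, shows how uneven a divided gene can be. Its level in HP1a WT Tconv was 0.0819, 3.71 and 0.0544 CPM, while the summed level of that cluster in the same libraries was 21.6, 22.8 and 22.3 CPM. In this group the sum was steady where the single gene was not, but the SD of the sum (0.594 CPM) was the lowest among the 12 groups. In HP1a WT Tconv with Treg the gene was at 2.85 ± 2.88 CPM (SD), and the sum was at 15.3, 16.5 and 22.8 CPM. Levels of some neighbouring genes are given below as sums as well. Those neighbours share only part of their words with each other, as Zfp975 does with Zfp976 (24.3%). Such sums can leave out other genes with which reads were divided, as Zfp985 shares most words with Zfp990 (16.9%).

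**Figure D2:**
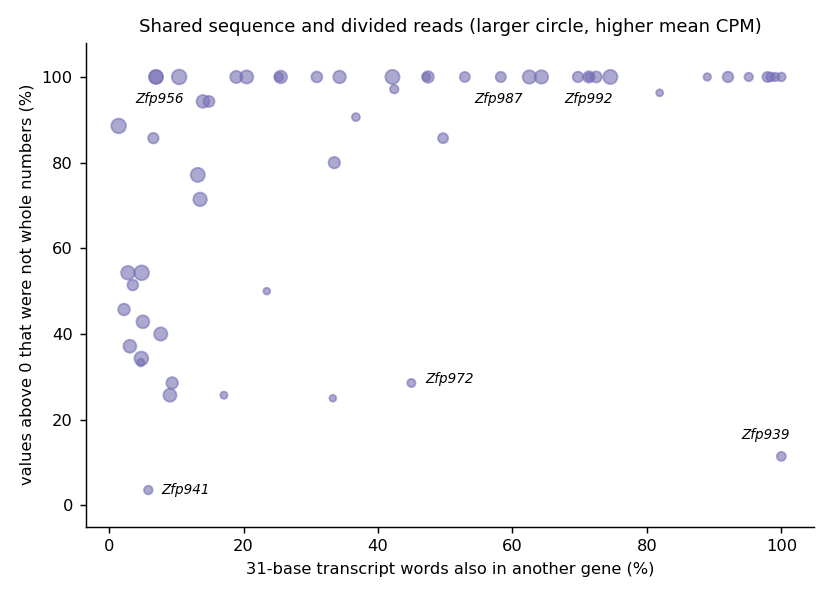
Share of values above 0 that were not whole numbers (vertical axis, percent) against the share of the 31-base transcript words of a gene that also occur in another gene (horizontal axis, percent), with 1 circle for each of the 56 Zfp9xx genes that reached 10 counts in a library and larger circles for higher mean CPM. Among these 56, genes that share 50% or more of their words sit near 100% not whole, apart from the pseudogene Zfp939. Genes with few shared words vary widely. Zfp942 (10.4% shared words) and Zfp956 (6.96%) are at 100%, while Zfp941, with 5.83% shared words, has 3.57% of values not whole.

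The promoters of some of the genes whose KO and WT libraries did not overlap after transfer are shown. None of these genes passed the thresholds of the main test of KO against WT, which are given below. Whether likeness of the start regions goes with the KO differences was not tested. Each window runs from 250 bases before to 50 bases after the RefSeq transcription start (promoter table of RefSeq on GRCm38.p6), and was placed on GRCm39 by its only exact match. Capitals mark the letters CCAAT or their reverse complement ATTGG, the motif of the factor NF-Y, and GGGCGG or CCGCCC, the GC box. In ATTGGGCGG the 2 motifs overlap. Zfp985, Zfp987 and Zfp988 were higher in HP1a KO Tconv, and Zfp975 and Zfp976 were higher in HP1g KO Tconv. Zfp984 is a well-expressed neighbour with a smaller relative difference in HP1a Tconv, also without overlap (means of 27.3 CPM in WT and 32.4 CPM in KO).
Zfp985 (chr4:147637484-147637783, plus strand): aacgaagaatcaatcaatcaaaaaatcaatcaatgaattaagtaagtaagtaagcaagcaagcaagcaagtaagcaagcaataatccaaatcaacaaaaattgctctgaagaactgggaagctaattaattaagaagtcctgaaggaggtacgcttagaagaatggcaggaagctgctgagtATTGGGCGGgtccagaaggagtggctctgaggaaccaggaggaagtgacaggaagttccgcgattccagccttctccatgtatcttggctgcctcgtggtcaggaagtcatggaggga
Zfp987 (chr4:146033632-146033931, plus strand): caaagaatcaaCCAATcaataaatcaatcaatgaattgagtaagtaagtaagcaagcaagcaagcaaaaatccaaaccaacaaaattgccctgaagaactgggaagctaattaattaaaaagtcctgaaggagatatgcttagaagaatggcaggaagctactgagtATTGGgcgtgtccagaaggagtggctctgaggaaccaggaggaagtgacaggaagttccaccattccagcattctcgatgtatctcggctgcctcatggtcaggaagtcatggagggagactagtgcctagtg
Zfp988 (chr4:147389811-147390110, plus strand): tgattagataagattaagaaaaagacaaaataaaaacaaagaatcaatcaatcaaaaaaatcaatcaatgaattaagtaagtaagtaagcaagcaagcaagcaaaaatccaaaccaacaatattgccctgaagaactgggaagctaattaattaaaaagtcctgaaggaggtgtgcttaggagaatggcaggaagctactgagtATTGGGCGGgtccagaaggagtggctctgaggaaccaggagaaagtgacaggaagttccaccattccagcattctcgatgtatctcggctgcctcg
Zfp984 (chr4:147894196-147894495, minus strand): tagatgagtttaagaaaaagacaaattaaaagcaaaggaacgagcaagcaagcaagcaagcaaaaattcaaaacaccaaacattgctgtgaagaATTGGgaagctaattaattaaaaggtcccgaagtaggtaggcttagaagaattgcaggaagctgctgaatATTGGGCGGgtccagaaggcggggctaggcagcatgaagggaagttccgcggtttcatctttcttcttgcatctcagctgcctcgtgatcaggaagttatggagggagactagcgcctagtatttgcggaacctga
Zfp975 (chr7:42342093-42342392, minus strand): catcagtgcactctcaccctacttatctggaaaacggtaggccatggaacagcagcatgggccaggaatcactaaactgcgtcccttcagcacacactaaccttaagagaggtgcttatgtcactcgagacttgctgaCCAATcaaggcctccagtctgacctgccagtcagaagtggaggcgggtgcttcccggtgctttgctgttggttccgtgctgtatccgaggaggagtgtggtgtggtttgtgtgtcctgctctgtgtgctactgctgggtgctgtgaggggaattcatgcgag
Zfp976 (chr7:42291979-42292278, minus strand): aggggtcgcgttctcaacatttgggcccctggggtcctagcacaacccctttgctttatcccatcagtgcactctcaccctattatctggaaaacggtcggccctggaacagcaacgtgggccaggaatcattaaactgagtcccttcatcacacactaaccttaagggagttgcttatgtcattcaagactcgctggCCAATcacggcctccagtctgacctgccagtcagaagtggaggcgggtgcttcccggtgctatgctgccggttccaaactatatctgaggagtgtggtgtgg

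Over their aligned bases the windows of Zfp987 and Zfp988 were 96.2% identical, those of Zfp985 and Zfp988 94.3%, and those of Zfp985 and Zfp987 94.0%. Zfp984 was further away, at 83.8% to 84.7% from these genes, and the windows of Zfp975 and Zfp976 were 90.8% identical. Promoter windows were found for 55 of the 67 genes (63 windows), and Zfp991 and Zfp992 were not among them. The letters CCAAT or ATTGG stood in 49 of 63 windows (77.8%), in 42.3% of 307 windows of the other numbered Zfp genes and in 37.4% of all 32851 windows. GGGCGG or CCGCCC stood in 34.9%, 46.3% and 35.7% of these sets, and TATAAA or TTTATA in 0%, 8.47% and 13.6%. Windows of duplicated genes are not independent of each other, so these shares are descriptions.

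The deleted genes were lower in the KO libraries, but neither was at 0. Cbx5 fell in HP1a KO Tconv, by 0.89 on the log2 scale (quasi-likelihood test of edgeR, adjusted p = 0.0331 after Benjamini and Hochberg), with means of 28.4 CPM in WT and 15.3 CPM in KO. In naive HP1a cells the log2 difference was −1.03 (adjusted p = 0.990) and in Tconv with Treg −1.42 (adjusted p = 0.0860), while Cbx3 differed by −0.95, −0.43 and −0.53 in the 3 conditions of the HP1g line (adjusted p = 0.630, 0.320 and 0.260). Counts were over the whole gene, exons outside the deleted part included. Of the 11 listed partners of KRAB zinc finger proteins (Trim28, Setdb1, Atf7ip, Morc3, Suv39h1, Suv39h2, Ehmt1, Ehmt2 and the 3 HP1 genes), all were tested, and Cbx5 in HP1a Tconv was the 1 that passed the adjusted p in a comparison of KO with WT. Markers of T cells were abundant in every library (5 of 5 genes present, summed 5093 to 8286 CPM), and those of B cells summed to at most 8.36 CPM. Markers of myeloid and erythroid cells were uneven between groups and are given beside the results. In bulk libraries fewer cells of a type and less RNA per cell cannot be told apart. Zfp956, at 3.52 Mb from Cbx3 on chromosome 6, was the only Zfp9xx gene within 10 Mb of a deleted gene, and its log2 differences in the HP1g line were 0.20, −0.02 and −0.01, with overlapping groups in each condition.

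In HP1g-deficient Tconv the Zfp9xx genes lay above WT more often than genes at large, though none passed the thresholds of an adjusted p under 0.05 and an absolute log2 fold change above 1, the rule for a call below. No gene of 51 was called, against 7 of 16015 of all genes (0.0437%). At an unadjusted p under 0.05 there were 15 of 51 Zfp9xx genes (29.4%), against 8.42% of all genes, and 14 of the 15 were higher in KO (5% of all genes were so). The 2 groups did not overlap for 17 genes (33.3%), 15 of them higher in KO, against 13.9% of all genes, with 6.97% higher. Genes that share words can divide the same reads, so the genes in these and the later counts are not independent of each other. The median log2 fold change was 0.26 over the 51 genes (37 above 0), 0.02 over all genes and 0.06 over 258 other numbered Zfp genes. By level it was 0.28 in Zfp9xx genes under 1 CPM, 0.26 in those of 1 to 10 CPM and 0.26 in those of 10 CPM or more, against 0.11, 0.09 and −0.0044 over all genes of these levels. In the 21 genes with under 20% shared words, among them genes without any whole value, it was 0.14 (12 above 0, 9 below). DESeq2, the tool of the study, called 5 of the 51 genes, where it called 1.45% of all genes.

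The lowest p was that of Zfp992 (ENSMUSG00000070605, chromosome 4 from 146533480 to 146554749), a zinc finger gene of the chromosome 4 cluster. Its level was 1.89, 2.23 and 1.88 CPM in HP1g WT Tconv and 5.86, 7.73 and 6.83 CPM in HP1g KO Tconv. Every KO library stood above every WT library, and the log2 fold change was 1.79 ± 0.22 (SE, n = 3 and 3, adjusted p = 0.0735 in the edgeR test). Replicate numbers paired the samples of this comparison, and a block for the replicate gave Zfp992 an adjusted p of 0.03, the 1 Zfp9xx gene called there (0.462% of all genes). It was also called in the fit on all libraries of the line (adjusted p = 0.0320, beside 0.108% of all genes) and in that without a filter on low counts (0.00835). Leaving out 1 library at a time gave adjusted p between 0.0717 and 0.431, with fold changes of 1.68 to 1.87 on the log2 scale. Its neighbour Zfp991 (ENSMUSG00000067916, 147209439 to 147268015) was at 3.73, 5.10 and 2.80 CPM in WT and 7.85, 9.93 and 10.4 CPM in KO, again without overlap (1.30 ± 0.26, adjusted p = 0.218). Zfp992 shared 62.8% of its words with Zfp991, and Zfp991 overlaps 2 other annotated genes on its own strand. Summed, the pair stood at 5.88 ± 1.35 CPM (SD, n = 3) in WT and 16.2 ± 2.16 CPM (SD, n = 3) in KO, and the sums did not overlap (4.68 to 7.33 and 13.7 to 17.7 CPM). In the HP1a line the same sum was 5.16 ± 0.604 CPM in WT and 8.20 ± 1.10 CPM in KO Tconv, also without overlap. Zfp993, another gene of the cluster with 95.2% shared words, was at 1.11, 0.615 and 0.144 CPM in HP1g WT and 1.09, 2.35 and 1.36 CPM in HP1g KO Tconv, with overlap between the groups.

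Other genes that were higher in HP1g KO Tconv lay on chromosomes 7, 13 and 17. Zfp976 (ENSMUSG00000074158, chromosome 7 from 42258950 to 42292012) was at 0.0806, 0.228 and 0.103 CPM in WT and 0.701, 0.871 and 0.591 CPM in KO, and the log2 fold change was 2.41 ± 0.50 (adjusted p = 0.222, edgeR). Its neighbour Zfp975 (ENSMUSG00000069727, 42309527 to 42342226), whose promoter is printed beside its own, was at 1.41, 0.661 and 0.845 CPM in WT and 1.97, 2.85 and 2.67 CPM in KO. Neither gene overlapped between WT and KO, and their sum was 1.11 ± 0.332 CPM in WT and 3.22 ± 0.528 CPM in KO. The pair Zfp934 and Zfp935 on chromosome 13 summed to 17.5, 19.9 and 19.8 CPM in WT and 24.9, 30.9 and 30.1 CPM in KO. All 3 KO sums were above all WT sums, and each gene of the pair also did not overlap. In the chromosome 17 cluster, 9 of 10 genes had a log2 fold change above 0 (median 0.40) and 4 did not overlap. Zfp948 of this cluster (ENSMUSG00000067931, 21787117 to 21809585), which shares few words with other genes (3.52%), was at 1.63, 1.98 and 2.27 CPM in WT and 4.48, 3.20 and 5.5 CPM in KO (1.18, adjusted p = 0.273). The chromosome 2 cluster had no gene without overlap, and Zfp951 was the 1 gene at an unadjusted p under 0.05 that was lower in KO (log2 difference −0.51, adjusted p = 0.435). Erythroid markers summed to 47.6 to 3112 CPM in WT and 97.6 to 2181 CPM in KO Tconv, and myeloid markers to 22.7 to 400 CPM and 31.8 to 110 CPM, so their ranges overlapped between the genotypes.

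**Figure D3:**
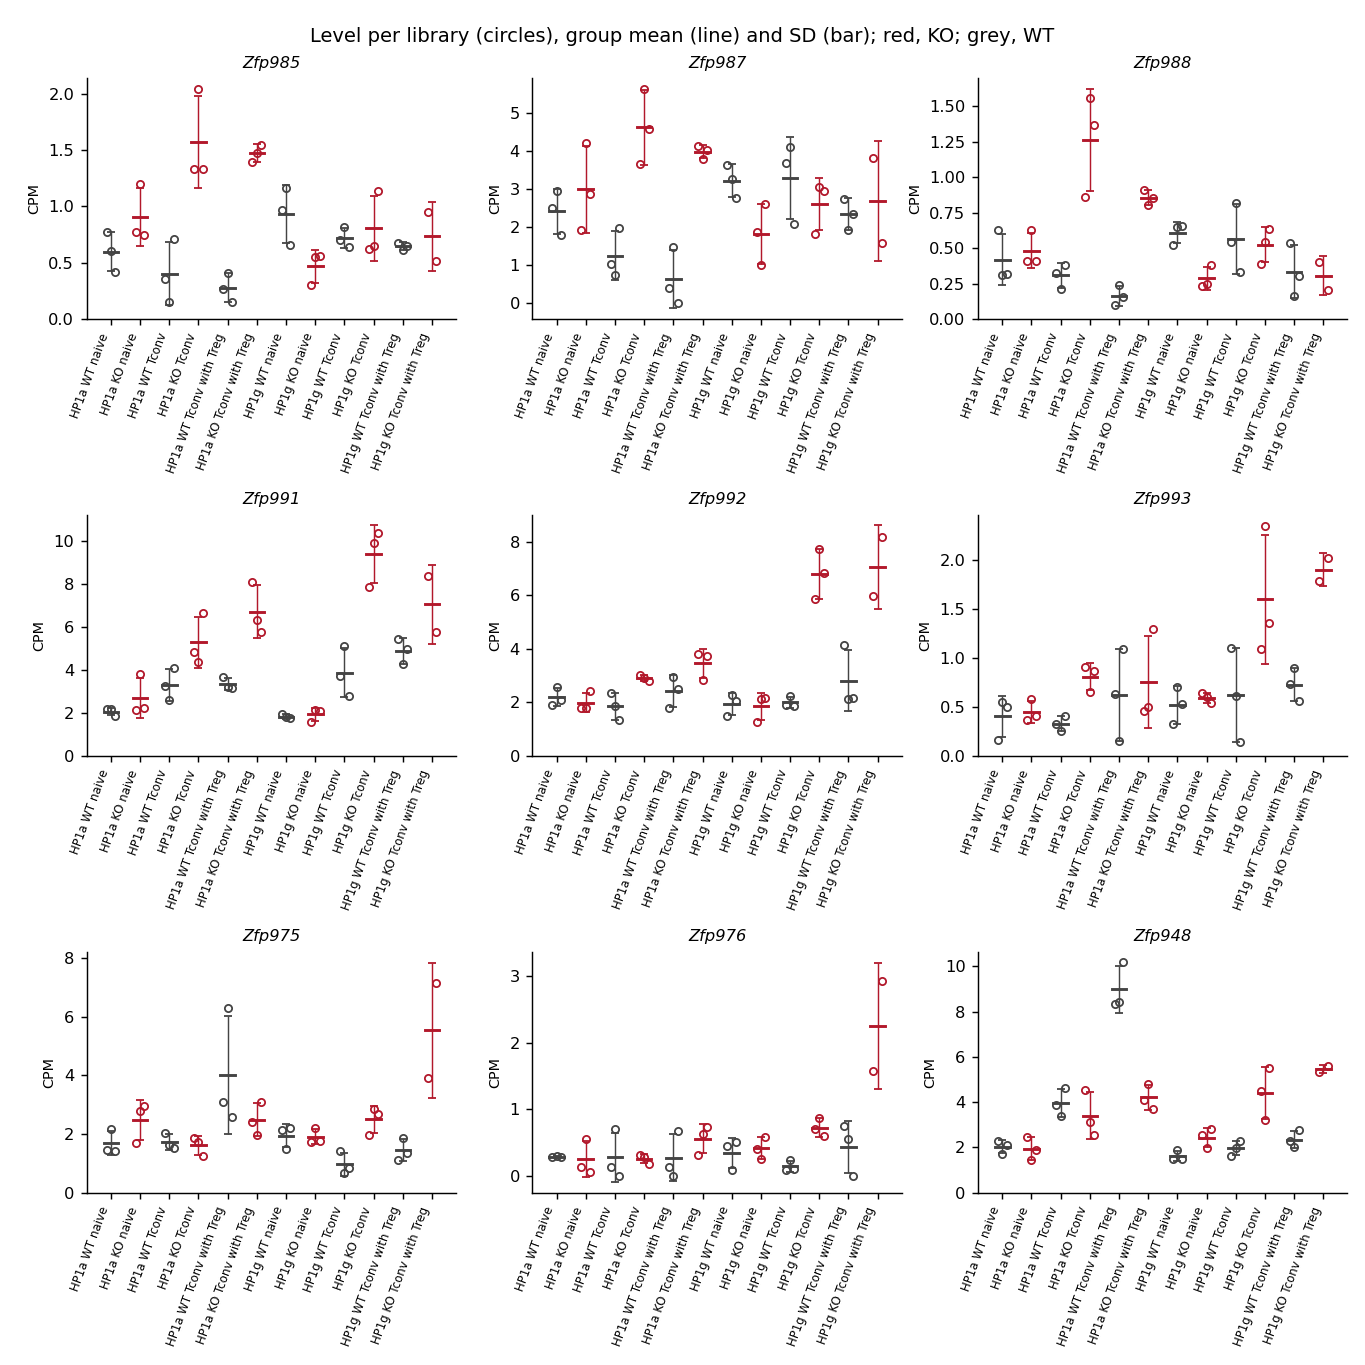
Level in CPM (vertical axis, linear) of 9 Zfp9xx genes in each library (circles) of the 12 groups (horizontal axis), with the group mean (line) and SD (bar), KO in red and WT in grey. Zfp992 is at 5.86 to 7.73 CPM in HP1g KO Tconv against 1.88 to 2.23 CPM in HP1g WT Tconv, and Zfp985, Zfp987 and Zfp988 separate KO from WT in the HP1a line after transfer but not in naive cells.

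When Treg had been co-injected, HP1g KO Tconv again lay above WT for a number of these genes, with 2 KO libraries. No gene of 53 was called, as was none of 17177 genes at large (0%). At an unadjusted p under 0.05 there were 10 genes (18.9%), all higher in KO, against 11.8% of all genes, with 7.32% higher. The groups did not overlap for 25 genes (47.2%), 20 of them higher, against 29.4% of all genes, with 16% higher. The median log2 fold change was 0.22 over the 53 genes, 0.01 over all genes, and 0.01 in the Zfp9xx genes with under 20% shared words. Zfp975 was at 1.87, 1.35 and 1.12 CPM in WT and 7.16 and 3.9 CPM in KO (1.93 ± 0.41, adjusted p = 0.198, edgeR). Zfp948 was at 1.99, 2.77 and 2.27 CPM in WT and 5.59 and 5.33 CPM in KO (1.22 ± 0.29, adjusted p = 0.221). Zfp993 was at 0.896, 0.558 and 0.732 CPM in WT and 2.02 and 1.79 CPM in KO (1.38 ± 0.39, adjusted p = 0.260). None of the 3 overlapped between the groups. DESeq2 called 3 of the 53 genes (Zfp948, Zfp975 and Zfp992) and 3.29% of all genes.

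Naive cells of the HP1g line did not show the upward shift. No gene of 49 was called (1 of 14939 of all genes, 0.00669%), and the median log2 fold change was −0.06, against 0.02 over all genes. At an unadjusted p under 0.05 there were 4 genes (8.16%) against 5.78% of all genes, and 11 genes did not overlap (22.4%), 9 of them lower in KO, against 16.8% of all genes, with 7.93% lower. Zfp937 (ENSMUSG00000060336), alone on chromosome 2 at 150059993 to 150086798, was the gene of lowest p. Its level was 6.41, 5.42 and 7.11 CPM in WT and 2.50, 2.05 and 2.53 CPM in KO naive cells. All KO libraries were below all WT libraries, and the log2 difference was −1.39 ± 0.22 (adjusted p = 0.381 by edgeR). DESeq2 (adjusted p = 5.75e-07, beside 0.261% of all genes called), the fit without a filter (0.0153) and the fit without WT naive replicate 2 (0.00534) called it, and other fits that left out a library gave adjusted p up to 0.922. Zfp988 and Zfp985 were lower in KO by 1.05 and 0.97 on the log2 scale without overlap (adjusted p = 0.630 each), a direction opposite to that seen in the HP1a line after transfer. The sum of Zfp991 and Zfp992 was 3.78 ± 0.337 CPM in WT and 3.79 ± 0.797 CPM in KO naive cells.

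The interaction of genotype and transfer in the HP1g line, which tests whether the KO effect in Tconv differed from that in naive cells, gave no call among 52 genes, against 4 of 17024 of all genes (0.0235%). At an unadjusted p under 0.05 there were 13 of 52 genes, all with a higher KO effect after transfer, against 7.89% of all genes, with 4.58% higher. DESeq2 called 1 Zfp9xx gene, Zfp992, and 0.593% of all genes. The median was 0.56 over the 52 genes (44 above 0), 0.08 over all genes and 0.08 over the other numbered Zfp genes. It was 0.26 in the genes with under 20% shared words (17 of 22 above 0), 0.35 in genes of 10 CPM or more and 1.11 in the chromosome 4 cluster (8 of 8 above 0). Zfp992 had an interaction of 1.90 ± 0.38 (adjusted p = 0.197 by edgeR), Zfp945 of 1.05 ± 0.30 (adjusted p = 0.405) and Zfp991 of 1.25 ± 0.36 (adjusted p = 0.411). In the HP1a line the median was −0.01, against 0.00 over all genes, 0 of 52 genes were called (1 of 17038 of all genes, 0.00587%), and 3 were at an unadjusted p under 0.05 (4.89% of all genes). DESeq2 called 0 of them and 0.399% of all genes. There Zfp988 (1.83 ± 0.60), Zfp987 (1.59 ± 0.56) and Zfp954 (−0.34 ± 0.15) had the lowest p, with adjusted p = 0.852, 0.876 and 1.

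In HP1a-deficient Tconv the difference was narrower and lay in the chromosome 4 cluster. No Zfp9xx gene of 50 was called, against 16 of 15521 of all genes (0.103%), 8 were at an unadjusted p under 0.05 (16.0%, 8.53% of all genes), and 10 did not overlap (20%, 15.3% of all genes), 9 of them higher in KO (6.74% of all genes). The median log2 fold change was 0.07 over the 50 genes, 0.00 over all genes and 0.997 over the 8 genes tested in the chromosome 4 cluster. All 8 had a value above 0, 7 of them did not overlap between the genotypes, and the same 7 made up all but 1 of the 8 genes at an unadjusted p under 0.05. Zfp985, Zfp987 and Zfp988 stood out in size.

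Zfp988 (ENSMUSG00000078498, 147390131 to 147422025) was at 0.327, 0.212 and 0.381 CPM in HP1a WT Tconv and 0.858, 1.55 and 1.36 CPM in HP1a KO Tconv. Zfp987 (ENSMUSG00000066009, 146033821 to 146068850) was at 1.01, 0.741 and 1.98 CPM in WT and 3.67, 5.64 and 4.58 CPM in KO. Zfp985 (ENSMUSG00000065999, 147637679 to 147669658) was at 0.355, 0.148 and 0.707 CPM in WT and 1.33, 2.04 and 1.33 CPM in KO. Every KO library was above every WT library for each of the 3, with log2 fold changes of 2.05 ± 0.40, 1.91 ± 0.39 and 1.98 ± 0.53 (edgeR, adjusted p = 0.323, 0.342 and 0.549). DESeq2 called Zfp987 and Zfp988 (adjusted p = 0.000438 and 0.0204) and 0.825% of all genes, and the fit without a filter called Zfp987 (0.0165). Summed, the 3 genes stood at 1.96 ± 1.01 CPM in WT and 7.46 ± 1.69 CPM in KO. Zfp984, the well-expressed neighbour, was at 26.0, 26.6 and 29.3 CPM in WT and 33.5, 34.0 and 29.8 CPM in KO, a log2 difference of 0.26 without overlap. The whole cluster of 16 genes summed to 39.7, 38.5 and 44.1 CPM in WT and 54.6, 57.2 and 54.1 CPM in KO. In the HP1g line the cluster sums were close to these, at 42.4 ± 2.68 CPM in WT and 57.4 ± 3.64 CPM in KO Tconv, but there Zfp985, Zfp987 and Zfp988 together were at 4.58 ± 1.39 CPM in WT and 3.93 ± 0.990 CPM in KO. The difference between the lines was not tested.

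**Figure D4:**
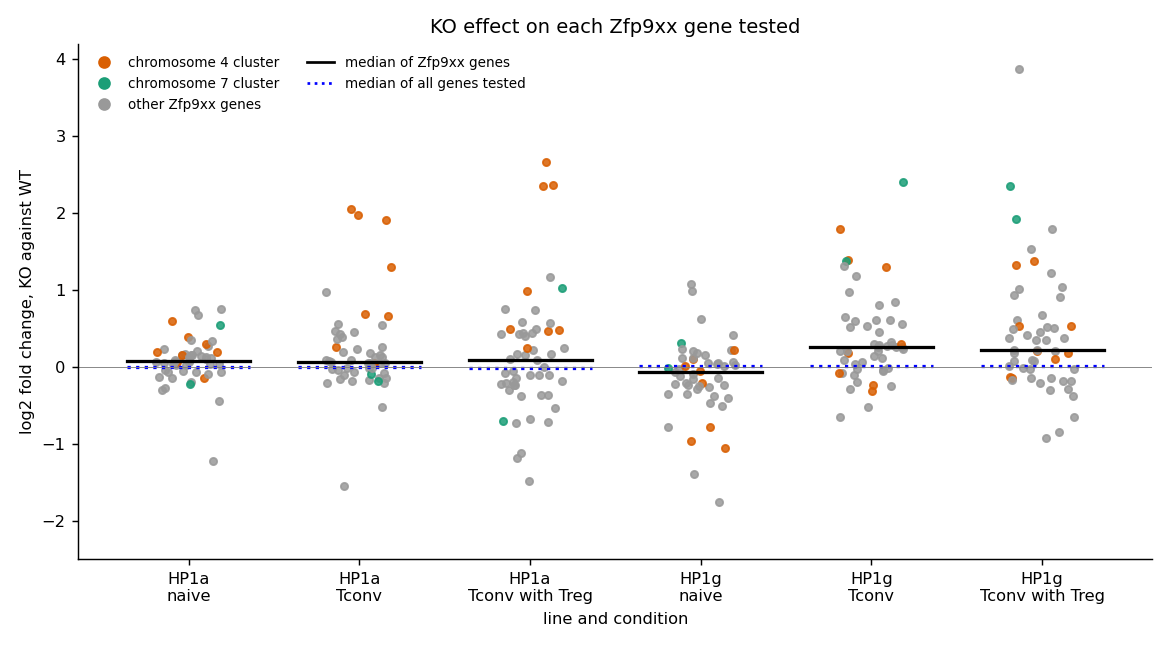
Log2 fold change of KO against WT (vertical axis) for every Zfp9xx gene tested (1 point per gene) in each line and condition (horizontal axis), with the chromosome 4 cluster in orange, the chromosome 7 cluster in green, the median of the Zfp9xx genes as a solid line and that of all genes as a dotted line. The solid line lies at 0.26 in HP1g Tconv and 0.22 in HP1g Tconv with Treg against 0.02 and 0.01 for all genes, and at 0.07 to 0.09 in the HP1a line.

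The same 3 genes were higher when Treg had been co-injected. So were others of the chromosome 4 cluster, where 6 of the 8 genes tested had every HP1a KO library above every WT library. The sum of Zfp991 and Zfp992 was 5.77 ± 0.369 CPM (SD) in WT and 10.2 ± 1.51 CPM (SD) in KO, without overlap. Zfp984 was at 20.1 ± 2.69 CPM (SD) in WT and 28.4 ± 3.86 CPM (SD) in KO. Zfp985 was at 0.270, 0.410 and 0.156 CPM in HP1a WT and 1.39, 1.48 and 1.55 CPM in HP1a KO Tconv with Treg (2.37 ± 0.61, adjusted p = 0.185, edgeR). Zfp988 was at 0.0963, 0.238 and 0.156 CPM in WT and 0.906, 0.801 and 0.855 CPM in KO (2.35 ± 0.68, adjusted p = 0.232), and Zfp987 at 0.385, 1.47 and 0 CPM in WT and 4.15, 3.80 and 4.02 CPM in KO. No WT library reached the lowest KO library in any of the 3. With all libraries of the HP1a line in the fit, Zfp985 (adjusted p = 0.0155) and Zfp988 (0.0106) passed both thresholds, as did 3.59% of all genes. Over the 52 genes tested none was called (20 of 16256 of all genes, 0.123%), 6 were at an unadjusted p under 0.05 (11.5%, 12.1% of all genes) and 12 did not overlap (23.1%, 21.5% of all genes). The median was 0.09 over the 52 genes, −0.01 over all genes, −0.03 in those with under 20% shared words and 0.74 over the 8 tested genes of the chromosome 4 cluster. Zfp948 went the other way. It was at 8.34, 8.40 and 10.2 CPM in WT and 4.11, 4.81 and 3.70 CPM in KO, all KO libraries lower (−1.12 ± 0.28, adjusted p = 0.176), and was called by DESeq2 (0.00167, beside 3.63% of all genes) and by the fit on all libraries of the line (0.0232).

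Markers of other cells moved with the HP1a genotype after transfer. Myeloid markers summed to 5.57 to 5.76 CPM in HP1a WT Tconv, where 3 of the 6 were over 1 CPM and 1 was at 0, and to 10.4 to 122 CPM in HP1a KO Tconv, where all 6 were over 1 CPM. The 4 erythroid markers summed to 1.15 to 2.50 CPM and 16.7 to 476 CPM. With Treg, myeloid markers were at 13.9 to 38.4 CPM in WT and 199 to 535 CPM in KO, and erythroid markers at 1.6 to 28.7 CPM and 72.9 to 430 CPM. Their part in the HP1a differences was not tested. In naive HP1a cells, where myeloid markers stood at 8.06 to 11.3 CPM in WT and 10.3 to 11.7 CPM in KO, Zfp985, Zfp987 and Zfp988 together were at 3.43 ± 0.791 CPM in WT and 4.38 ± 1.5 CPM in KO. In HP1g WT Tconv with Treg, where myeloid markers were at 95.5 to 131 CPM, they were at 3.32 ± 0.638 CPM.

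Naive HP1a-deficient cells differed little from WT in this family in fits that did not pair the samples. Replicate numbers did pair the samples here (correlations of 0.400 to 0.779). In edgeR, a block for the replicate gave 1372 of 15549 of all genes an unadjusted p under 0.05, where the unpaired fit gave 291. The values below are from unpaired fits. No gene of 51 was called (0 of 15549 of all genes, 0%), 1 was at an unadjusted p under 0.05 (1.96%, 1.87% of all genes), and 1 did not overlap (1.96%, 6.17% of all genes). Zfp951 (ENSMUSG00000072774, chromosome 5 from 104960515 to 105008190) was that gene, at 11.5, 12.3 and 11.3 CPM in WT and 20.6, 18.8 and 20 CPM in KO. Its KO libraries lay well above the WT libraries, with a log2 difference of 0.76 ± 0.12 (adjusted p = 0.810 by edgeR). The next genes by p, Zfp975 (0.55) and Zfp985 (0.59), overlapped between the groups. The median was 0.07, against 0.00 over all genes and 0.05 over the other numbered Zfp genes. DESeq2 called 0 Zfp9xx genes here and 0.0836% of all genes. Of the members with a described target, Zfp932, which represses endogenous retroviruses of the ERVK class, had log2 differences between −0.37 and 0.21 in the 6 comparisons of KO with WT, and Zfp961, which binds the lysine primer-binding site of retroviruses, had differences between −0.24 and 0.25. Both were named for their role with their values already seen, and neither passed the test in any of the 6.

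Transfer into an allografted host changed a minority of the Zfp9xx genes, fewer than genes at large. Of 51 genes in HP1a WT cells, 1 rose and 5 fell (11.8%), while 23.1% of all genes were called (12.9% rose, 10.2% fell). In HP1a KO cells 3 rose and 4 fell of 51 (13.7%), beside 19.7% of all genes (12.4% rose, 7.24% fell). In HP1g WT cells 3 rose and 3 fell of 51 (11.8%), beside 23.5% of all genes (15% rose, 8.55% fell). In HP1g KO cells 7 rose and 1 fell of 52 (15.4%), beside 23.1% of all genes (15.7% rose, 7.3% fell). These comparisons set cells of grafted hosts against cells taken straight from donors, so time, host, division and way of isolation cannot be told apart. Markers of other cells moved with transfer as well. Myeloid markers summed to 8.06 to 11.3 CPM in naive and 5.57 to 5.76 CPM in transferred HP1a WT cells, to 4.87 to 11.4 CPM and 22.7 to 400 CPM in HP1g WT cells, and to 8.33 to 11.1 CPM and 31.8 to 110 CPM in HP1g KO cells. Their ranges overlapped in HP1a KO cells. Erythroid markers summed to 22.4 to 58.7 CPM in naive and 1.15 to 2.50 CPM in transferred HP1a WT cells, to 5.89 to 30.7 CPM and 47.6 to 3112 CPM in HP1g WT cells, and to 39.8 to 48.1 CPM and 97.6 to 2181 CPM in HP1g KO cells. Their part in the results was not tested. The median log2 fold changes were −0.18, −0.08, −0.10 and 0.26, against −0.04, −0.01, −0.03 and 0.02 over all genes and −0.37, −0.34, −0.22 and −0.23 over the other numbered Zfp genes. HP1g KO was thus the 1 genotype in which the median of the family lay above 0.

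Zfp946, in the chromosome 17 cluster (22643102 to 22675671), fell after transfer in each of the 4 genotypes. It was at 3.58, 5.49 and 6.47 CPM in naive and 1.66, 1.33 and 1.41 CPM in transferred HP1a WT cells, all of the latter lower (−1.81 ± 0.29, adjusted p = 0.00131, edgeR). It fell by 2 in HP1a KO (adjusted p = 0.00359), by 2.01 in HP1g WT (0.00176) and by 1.25 in HP1g KO cells (0.00470), each time without overlap. Zfp963 on chromosome 8 fell in HP1a WT (−1.08, adjusted p = 0.0280), HP1a KO (−1.22, 0.0216) and HP1g WT cells (−1.27, 0.0124), and its naive HP1a WT libraries were uneven, at 4.74, 11.4 and 10.7 CPM, and overlapped with 4.97, 3.81 and 3.91 CPM after transfer. Zfp974 on chromosome 7 (27581826 to 27628971) fell in both genotypes of the HP1a line, from 3.86, 9.36 and 8 CPM in naive to 2.32, 2.05 and 1.66 CPM in transferred WT cells (−1.81 ± 0.35, adjusted p = 0.00341) and by 1.62 in KO cells (0.00865). Its transferred libraries were all below its naive libraries, with naive replicate 1 the lowest of the naive group, as for Zfp963. Zfp970 and Zfp967 of the chromosome 2 cluster fell in HP1a WT cells, Zfp964 in HP1a KO cells, and Zfp995 in HP1g WT cells (from 11.9 ± 2.93 to 5.94 ± 0.811 CPM, adjusted p = 0.0163).

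Zfp941 and Zfp939 were the genes that rose most. Zfp941 on chromosome 7 (140387362 to 140402123) was at 0.0735, 0.110 and 0.0602 CPM in naive and 1.61, 2.33 and 5.25 CPM in transferred HP1a WT cells (5.21 ± 0.59, adjusted p = 0.000196, edgeR). It also rose in HP1a KO cells (2.85, adjusted p = 0.0435) and in HP1g KO cells (adjusted p = 0.000440), in the latter from 0, 0 and 0.0224 CPM to 0.506, 0.958 and 0.920 CPM. In HP1g WT cells the naive libraries were at 0 and the transferred libraries at 0.786, 2.14 and 0.886 CPM, at least 17.6-fold higher than the 0.072 CPM that 3 counts in a library would give. Every transferred library was above every naive library of its genotype, and its transcripts share few words with other genes (5.83%). The pseudogene Zfp939 rose in HP1a KO (2.12), HP1g WT (2.87) and HP1g KO cells (3.19 ± 0.44, adjusted p = 0.000602), in the last from 0.248, 0.150 and 0.291 CPM to 2.96, 1.89 and 1.47 CPM. Its groups did not overlap there. All of its words also occur in another gene of the annotation used here, though only 11.4% of its values above 0 were not whole.

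Zfp991 rose in HP1g cells of both genotypes, from 1.94, 1.81 and 1.74 CPM to 3.73, 5.10 and 2.80 CPM in WT (1.08 ± 0.30, adjusted p = 0.0285, edgeR) and from 1.59, 2.15 and 2.08 CPM to 7.85, 9.93 and 10.4 CPM in KO (2.30 ± 0.23, adjusted p = 0.000109). Zfp992 (1.91 ± 0.28, adjusted p = 0.000825) and Zfp993 (1.45 ± 0.39, adjusted p = 0.0171), the other leading genes of the chromosome 4 cluster, rose in HP1g KO cells. In HP1g WT cells Zfp992 differed by 0.04 (adjusted p = 0.936) and Zfp993 by 0.25 (adjusted p = 0.805). Zfp968 of the chromosome 2 cluster (1.90 ± 0.40, adjusted p = 0.00519) and Zfp934 (1.11 ± 0.22, adjusted p = 0.00438) also rose in HP1g KO cells, and Zfp988 rose in HP1a KO cells (1.40 ± 0.38, adjusted p = 0.0227). Several of these calls depended on single libraries. Without HP1g WT Tconv replicate 2 the adjusted p was 0.124 for Zfp991 in HP1g WT cells, 0.0599 for Zfp963 and 0.0635 for Zfp995, without HP1g KO Tconv replicate 2 it was 0.0807 for Zfp993 in HP1g KO cells, and without HP1a WT naive replicate 2 it was 0.101 for Zfp963 in HP1a WT cells, and the calls of Zfp991, Zfp995, Zfp993 and Zfp963 in HP1a WT cells were also lost without at least 1 other library. The call of Zfp963 in HP1a KO cells was lost without any 1 of 5 of its 6 libraries (adjusted p up to 0.0731, without naive replicate 2), and without HP1g KO Tconv replicate 2 the log2 fold change of Zfp934 was 0.997, just under the threshold. Among the partner proteins, Ehmt2 rose (log2 0.56, 0.60 and 0.41) and Atf7ip (−0.75, −0.66 and −0.53) and Ehmt1 (−0.35, −0.37 and −0.54) fell in HP1a WT, HP1a KO and HP1g KO cells at an adjusted p under 0.05, which 5 of the 11 reached in each of these genotypes and 1, Suv39h1 (−0.57), in HP1g WT cells. Cbx5 passed both thresholds in HP1g KO cells (1.10, adjusted p = 0.0404).

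**Figure D5:**
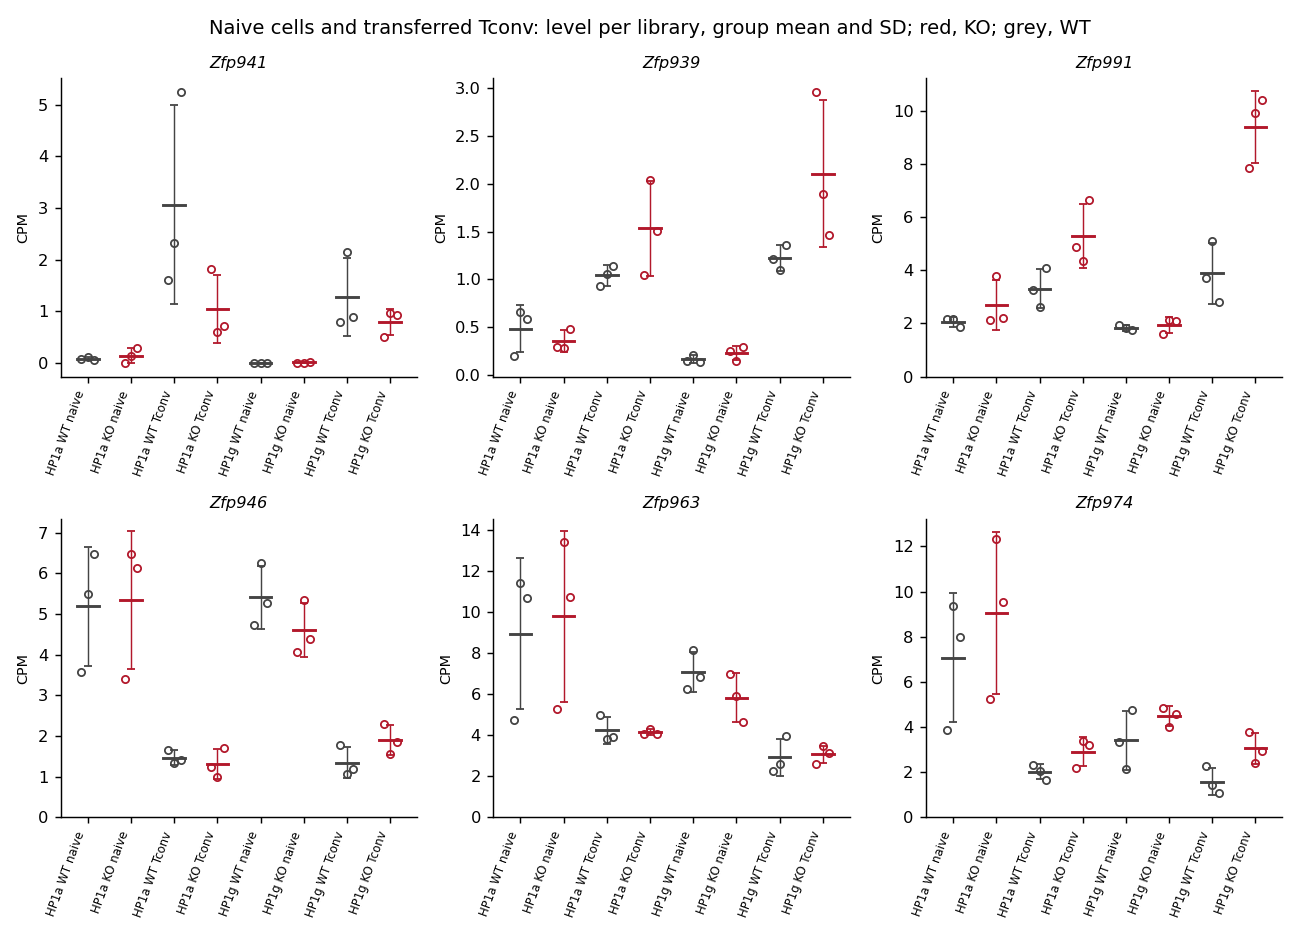
Level in CPM (vertical axis, linear) of 6 Zfp9xx genes in each naive and transferred Tconv library (circles) by group (horizontal axis), with the group mean (line) and SD (bar), KO in red and WT in grey. Zfp941 is at 0 to 0.279 CPM in the naive libraries and 0.506 to 5.25 CPM after transfer, Zfp946 is lower after transfer in all 4 genotypes, and Zfp991 is highest in HP1g KO Tconv at 7.85 to 10.4 CPM.

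Co-injected Treg changed 1 Zfp9xx gene. Zfp948 rose in HP1a WT Tconv, from 3.88, 3.39 and 4.62 CPM to 8.34, 8.40 and 10.2 CPM with Treg (1.22 ± 0.27, adjusted p = 0.0341, edgeR), 1 call among 51 genes (1.96%) where 932 of 15627 of all genes were called (5.96%). The groups did not overlap, but the call was lost without a filter (adjusted p = 0.0506), with the replicate as a block (0.0683) and without 5 of its 6 libraries in turn (adjusted p 0.0227 to 0.173). DESeq2 called Zfp948 and Zfp975, and 9.95% of all genes. Myeloid markers summed to 5.57 to 5.76 CPM in the libraries without and 13.9 to 38.4 CPM in those with Treg, also without overlap, and their part in the result was not tested. In HP1a KO cells the gene was at 4.55, 3.13 and 2.54 CPM without and 4.11, 4.81 and 3.70 CPM with Treg, groups that overlap, and the interaction of genotype and Treg was −0.89 ± 0.37 (adjusted p = 0.447). No Zfp9xx gene was called in HP1a KO (71 of 16133 of all genes, 0.44%), HP1g WT (2 of 15903, 0.0126%) or HP1g KO cells (0 of 16991, 0%). At an unadjusted p under 0.05 there were 5 of 52, 4 of 52 and 3 of 53 Zfp9xx genes, beside 15.8%, 6.89% and 7.62% of all genes. DESeq2 called 0 Zfp9xx genes in these 3, and 2.35%, 0.258% and 1.42% of all genes. Myeloid markers were at 10.4 to 122 CPM without and 199 to 535 CPM with Treg in HP1a KO cells, and overlapped in both genotypes of the HP1g line. The medians in the 4 genotypes were 0.06, −0.01, 0.14 and 0.09, against 0.03, 0.02, 0.00 and 0.01 over all genes.

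The interactions of genotype and Treg gave no call among 52 genes in the HP1a line (24 of 17205 of all genes, 0.139%) or 53 in the HP1g line (0 of 17833, 0%), with 3 and 0 genes at an unadjusted p under 0.05 (9.74% and 3.74% of all genes). DESeq2 called 0 in both, and 1.95% and 0.0897% of all genes. Zfp954, a solitary gene on chromosome 7 (7115123 to 7124498) and among the best expressed, was at 37.6, 36.6 and 34.7 CPM in HP1a WT Tconv and 31.4, 33.5 and 24.7 CPM with Treg. In HP1a KO cells it was at 33.8, 31.9 and 30.6 CPM without and 39.8, 38.8 and 41.3 CPM with Treg, so that neither pair of groups overlapped and they lay in opposite order (interaction 0.58 ± 0.18, adjusted p = 0.244 by edgeR). Zfp970 (−1.83 ± 0.74, adjusted p = 0.431) followed by p. In the HP1g line Zfp940 (0.59 ± 0.28), Zfp942 (−0.29 ± 0.14) and Zfp991 (−0.78 ± 0.38) had the lowest p, with adjusted p = 1 each. The medians were −0.04 and −0.01, against −0.02 and −0.03 over all genes.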

How the data were processed

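The authors trimmed the paired-end reads with Cutadapt 3.4 in Trim Galore 0.6.7, aligned them with STAR 2.7.10a to GRCm39 (Ensembl annotation 107) and deposited estimated counts per gene from Salmon 1.5.2, run in nf-core/rnaseq 3.9. They were not scaled or filtered, and 82.9% of the values were whole (within 1e-06). Both the amplification from 10 pg of RNA and the kit, which does not mark strand, limit the counts of low and overlapping genes. The columns were matched to samples by title. HP1g KO Tconv with Treg replicate 3, which the study excluded for RNA quality, was left out of all comparisons.

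Counts were rounded and tested with the quasi-likelihood test of edgeR 4.0.16 (R 4.3.3, TMM scaling, filterByExpr) over all genes that passed the filter, with the libraries compared alone and adjustment after Benjamini and Hochberg. Calls needed an adjusted p under 0.05 and an absolute log2 fold change above 1. The labels give replicates as separate samples, and p-values measure the spread between these. CPM were scaled by TMM over all libraries in use, except where the excluded library is described, and the floor was 3 counts per library. Alternatives were DESeq2 1.42.0, RLE scaling, no filter, all libraries of the line, the replicate as a block, the excluded library put back and each library left out. Replicate numbers paired the samples (every correlation of same-numbered deviations above 0.1) for HP1a naive cells (0.400 to 0.779), HP1g Tconv (0.198 to 0.515), Treg in HP1g WT (0.134 to 0.440) and Treg by genotype in the HP1g line (0.105 to 0.516). The fits were tested on simulated counts.

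The text names called genes of at least 1 CPM (at most 6 per direction), the 3 genes of lowest p in each comparison of genotypes with fewer than 3 calls, the 5 highest genes, those within 10 Mb of a deleted gene and 3 with the most values that were not whole. Other genes named, among them Zfp934, Zfp935, Zfp965 and Zfp984 in single comparisons, and Zfp932 and Zfp961 for their role, were chosen after their values were seen. The genes and lists were chosen with earlier results of these data known.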

Additional observations from a re-analysis of the deposited data

Results flagged for a closer look

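With Treg, Zfp948 lay on opposite sides of WT in the Tconv of the 2 lines. The log2 difference of KO from WT was −1.12 in the HP1a line, where every KO library was below every WT library, and 1.22 in the HP1g line, where both KO libraries were above every WT library. Neither passed the adjusted p, and the difference between the lines was not tested.

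The effect of Treg on Zfp954 had opposite signs in the genotypes of the HP1a line, at −0.24 in WT and 0.34 in KO cells. The interaction was 0.58 (adjusted p = 0.244 by edgeR). Zfp983 had log2 differences of −0.29 in WT and 0.083 in KO cells, again without overlap in either, and an interaction of 0.38 (adjusted p = 0.550 by edgeR).

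In the HP1g KO Tconv with Treg library that the study excluded, 2 Zfp9xx genes were above every other library of the series. They were Zfp945 at 189 CPM against 17.1 to 59.7 CPM and Zfp948 at 25.4 CPM against 1.49 to 10.4 CPM. CPM in this paragraph were not scaled by TMM. Of the 40 Zfp9xx genes averaging 1 CPM or more, 28 were below every other library (70%), against 58.9% of 12804 genes at large. Genes above every other library made up 5% and 14.5%.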

How the results depend on the processing

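No gene named for a call or for a low p in a comparison changed sign there under any alternative, but medians close to 0 did. Other named values were not checked for their sign. In the counts of Zfp9xx genes called, DESeq2 gave 2 for KO against WT in HP1a Tconv, 2 in HP1a Tconv with Treg, 1 in HP1g naive cells, 5 in HP1g Tconv and 3 in HP1g Tconv with Treg where edgeR gave 0, 1 for the interaction of genotype and transfer in the HP1g line where it gave 0, and 2 for Treg in HP1a WT cells where it gave 1. Without a filter the counts were 1 in HP1a Tconv, 1 in HP1g naive cells, 2 in HP1g Tconv and 0 for Treg in HP1a WT cells. With all libraries of the line they were 3 in HP1a Tconv with Treg, 1 in HP1g Tconv, 2 in HP1g Tconv with Treg and 2 for Treg in HP1a WT cells. With the replicate as a block they were 1 in HP1g Tconv and 0 for Treg in HP1a WT cells, and Zfp963 in HP1a WT and Zfp991 in HP1g WT cells lost their calls after transfer (adjusted p = 0.0664 and 0.0693). Without the threshold on the fold change, transfer gave 10 genes in HP1a WT, 13 in HP1a KO and 16 in HP1g KO cells. The causes were not tested.

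Over the genes with under 20% shared words, an alternative added after the data were seen, the medians were −0.028 for HP1a Tconv with Treg, 0.14 for HP1g Tconv, 0.015 for HP1g Tconv with Treg, 0.082 for transfer of HP1g KO cells, −0.032 for Treg in HP1a WT cells and 0.26 for genotype and transfer in the HP1g line. With each library left out in turn, the calls ranged from 0 to 1 in HP1g naive cells, 3 to 8 for transfer in HP1a WT, 3 to 9 in HP1a KO, 4 to 8 in HP1g WT and 7 to 11 in HP1g KO cells, and 0 to 2 for Treg in HP1a WT cells. The medians ranged from −0.048 (without HP1a WT naive replicate 1) to 0.21 in HP1a naive cells, −0.15 to −0.0028 in HP1g naive cells, 0.18 (without HP1g WT Tconv replicate 1) to 0.32 in HP1g Tconv, −0.035 to 0.046 for Treg in HP1a WT, 0.022 to 0.25 for Treg in HP1g KO, where 1 KO library was left and was assumed to vary like the others, −0.30 to −0.078 for transfer in HP1a WT, −0.16 to −0.023 in HP1a KO and −0.17 to −0.062 in HP1g WT cells, 0.41 to 0.57 for genotype and transfer in the HP1g and −0.10 to 0.15 in the HP1a line, −0.16 to 0.013 for genotype and Treg in the HP1g line, and −0.11 to 0.020 for genotype and Treg in the HP1a line. RLE scaling moved the median of all genes by at most 0.032. The estimated counts of near-identical genes, the low levels of most of them and groups of 2 or 3 libraries limit what single genes can show.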
